A study of Mus musculus with 12 samples.

Results

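The DNAJ proteins, also called HSP40s, are the co-chaperones that bring client proteins to HSP70 and start its ATPase cycle. The family was taken here as every gene of the array whose symbol begins with Dnaja, Dnajb or Dnajc and which has a transcript cluster of its own, that is a cluster annotated with this symbol alone. This gave 41 genes of the 22180 that have such a cluster. The 41 genes had 44 clusters, and for Dnaja3 and Dnajb14, which had several, the cluster brightest over the 12 arrays was used. Dnaja1, Dnajb8, Dnajc17 and Dnajc19 were found only on clusters that carry several gene symbols and were not analysed here. All 41 members were tested, and 8 of them were dim, with fewer than 3 of the 12 arrays at or above a log2 signal of 5. The 8 dim members were Dnajb3, Dnajb4, Dnajb7, Dnajb13, Dnajc5b, Dnajc5g, Dnajc6 and Dnajc27.

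Epithelial cells were released with EDTA from the ileum (S-IECs) and from the colon (L-IECs) of untreated mice 11 weeks old, and total RNA was put on Affymetrix Mouse Gene 2.0 ST arrays, 1 per sample. Nfat5IEC-KO mice carried Vil-Cre together with Nfat5fl/fl, so that the Villin promoter drove Cre, and with it the loss of Nfat5, in the intestinal epithelium. Their controls were Nfat5fl/fl mice without Cre, and per the study's methods all mice were males on a C57BL/6J background. There were 3 arrays in each of the 4 groups of tissue and genotype. NFAT5 is a transcription factor of the Rel family best known for the response to hypertonicity, and it also switches on HSP70 genes. The comparisons show how the J-domain partners of HSP70 stood in both tissues and in both genotypes.

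A J domain is a short helical domain with a conserved histidine, proline and aspartate (HPD) motif, through which a DNAJ protein stimulates the ATPase of an HSP70. Class A and B members of the cytosol also bind unfolded clients themselves, while most class C members carry the J domain on a protein with a job of its own, at a ribosome, a membrane or a vesicle. Each compartment has its own pair: DNAJA and DNAJB proteins work with HSPA8 and the heat-inducible HSPA1A and HSPA1B in the cytosol, the ERdj proteins with BiP (HSPA5) in the endoplasmic reticulum (ER), and DNAJA3 with mortalin (HSPA9) in mitochondria. Paneth cells and goblet cells of the gut epithelium secrete heavily, and their ER depends on this folding machinery.

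The values were log2 summaries of signal per transcript cluster, and a difference of 1 is a doubling. Differences are given with ± 1 SE of the limma fit, for 3 arrays against 3, and adjusted p-values are those of limma. Levels of different genes were not set against each other, because the probes of each bind with a strength of their own. Array medians lay between 4.48 and 4.57, and arrays of 1 group correlated with r of 0.988 to 0.992 across clusters. The median SD of a member within a group was 0.15 on the log2 scale. The targeted gene, Nfat5, stood at 7.49, 7.45 and 7.54 in Nfat5fl/fl L-IECs and at 6.92, 6.90 and 7.00 in Nfat5IEC-KO L-IECs (difference -0.55 ± 0.09, limma, adjusted p = 0.544). In S-IECs it stood at 8.03, 8.03 and 8.17 and at 8.08, 7.84 and 8.01, the groups overlapped (difference -0.10 ± 0.12, limma, adjusted p = 0.763), and so its level did not set the genotypes apart there. Where its probes lie relative to the deleted exons is not stated in the sources read here.

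Some S-IEC arrays stood apart from their group in the markers of cell types. Car1, a carbonic anhydrase of colonocytes, was at 4.32, 9.75 and 8.59 in the 3 Nfat5fl/fl S-IEC arrays against 12.71, 12.75 and 12.73 in Nfat5fl/fl L-IECs, and at 4.97, 3.65 and 4.84 in Nfat5IEC-KO S-IECs. All 7 measured Paneth cell markers and all 7 measured markers of cycling crypt cells were lower in Nfat5IEC-KO S-IECs at an unadjusted p under 0.05. The mean level of the Paneth cell list ran from 9.59 to 9.96 in the Nfat5fl/fl arrays and from 8.20 to 9.38 in the Nfat5IEC-KO arrays, and that of the cycling list from 7.28 to 7.65 and from 6.52 to 7.16. In both lists Nfat5IEC-KO replicate 2 was the array nearest to the controls. None of the 6 markers of all epithelium was lower or higher at this limit, and their mean level was 11.0 to 11.1 in Nfat5fl/fl and 11.1 to 11.2 in Nfat5IEC-KO S-IECs. Of the other lists, 3 of 5 colonocyte markers and 1 of 7 markers of T cells and intraepithelial lymphocytes were lower in Nfat5IEC-KO S-IECs, 2 of 7 markers of ileal enterocytes and 1 of 8 immediate early genes were higher, and none of the 3 B and plasma cell, 4 myeloid or 5 stromal and endothelial markers was called. In L-IECs 0 of the 7 Paneth cell and 0 of the 7 cycling markers were called in either direction. The study states that the colon lacks Paneth cells. Lyz1 and Mmp7 had means of only 4.25 and 4.37 in Nfat5fl/fl L-IECs, while Ang4 was bright there at 10.02. The 0 of the Paneth cell list therefore cannot tell of a loss of these cells in L-IECs.

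In S-IECs, 6 of the 41 members were lower in Nfat5IEC-KO than in Nfat5fl/fl at an unadjusted p under 0.05, and 0 were higher. They were Dnaja3 and Dnajc15 of mitochondria, Dnajc10 and Dnajc3 of the ER lumen, and Dnajc2 and Dnajc9, which serve the ribosome and histones, each lower by a log2 difference of 0.36 to 0.53. No member passed an adjusted p under 0.05 in either direction (limma, Benjamini-Hochberg over 25341 clusters), where 0% of all clusters were called lower and 0.00789% higher. The share lower, 14.6%, stood against 8.23% of all clusters tested, and the 0 higher against 5.81%. None of the 6 was a dim member. Among the 12657 clusters that were not dim, 15.3% were lower by the same rule, beside 18.2% of the 33 members that were not dim, and so the share among the members lay near that of clusters of like brightness. The median difference over the 41 members was -0.02, beside 0.01 over all clusters.

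**Figure D1:**
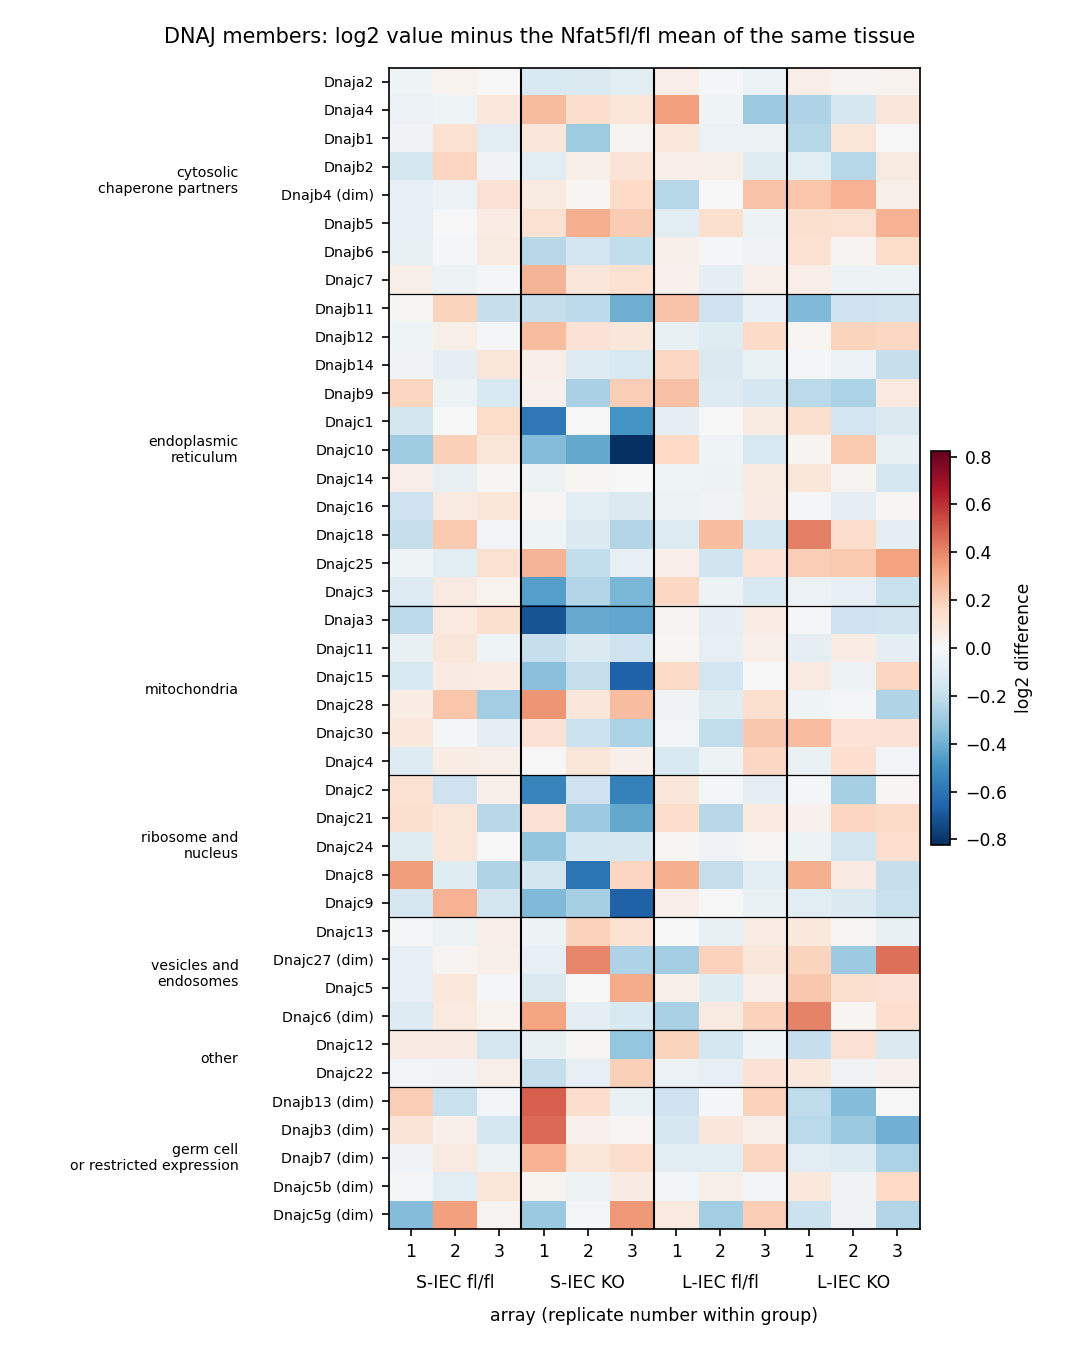
Log2 signal of each of the 41 members (rows, by compartment or role) on each of the 12 arrays (columns), minus the mean of that member over the 3 Nfat5fl/fl arrays of the same tissue; blue is lower and red is higher. The deepest blue lies in the Nfat5IEC-KO S-IEC columns, at Dnajc10 in replicate 3 and Dnaja3 in replicate 1, and Dnajc1 and Dnajc2 are deep blue in replicates 1 and 3 but not in replicate 2.

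The groups did not overlap for 10 members that were lower in Nfat5IEC-KO S-IECs and for 5 that were higher. These were 24.4% and 12.2% of the 41, against 10.4% and 9.8% of all clusters. None of the 10 lower members was dim, and the share among clusters of like brightness was not computed. The 10 lower were Dnaja2, Dnaja3, Dnajb6, Dnajb11, Dnajc3, Dnajc9, Dnajc10, Dnajc11, Dnajc15 and Dnajc24. The 5 higher were Dnaja4, Dnajb5, Dnajb7, Dnajb12 and Dnajc7, with differences of 0.16 to 0.21, and none of these passed an unadjusted p under 0.05. The count of 6 depended on single arrays: it was 3 without Nfat5fl/fl replicate 2, 3 without Nfat5IEC-KO replicate 3 and 7 without Nfat5IEC-KO replicate 2, against 5.98%, 6.27% and 9.51% of all clusters. Dnaja3 and Dnajc3 were among those lower in each of these 3 fits.

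The mitochondrial group had 6 members, of which 2 were lower at an unadjusted p under 0.05. The mitochondrial, ER and ribosome and nucleus groups held no dim member. Their counts stand beside the 15.3% of clusters not dim that were lower. Dnaja3 (chr16:4684070-4707695; gene positions are those of RefSeq on GRCm38.p6, the build also called mm10) encodes Tid1, the matrix partner of mortalin. Its signal was 7.14, 7.44 and 7.49 in Nfat5fl/fl S-IECs and 6.65, 6.94 and 6.93 in Nfat5IEC-KO S-IECs. All 3 knockout arrays were below all 3 control arrays, with replicate 1 the lowest of its group in both. The difference was -0.52 ± 0.14 (SE), or 1.43-fold lower, with the smallest p of the family in this comparison (unadjusted p = 0.00503; limma, adjusted p = 0.164). In a fit of all 12 arrays together its adjusted p was 0.0453, the only member called in that fit, where 1.75% of all clusters were called lower. The other 2 clusters of Dnaja3, with mean signals of 4.45 and 3.71, gave differences of 0.10 and -0.12 with overlapping groups. Dnajc15 (chr14:77826217-77874917), an inner membrane paralog of the import motor subunit Dnajc19, stood at 6.35, 6.54 and 6.54 in controls and 6.13, 6.28 and 5.82 in knockouts (difference -0.40 ± 0.14, limma, adjusted p = 0.254). The knockout arrays were again all lower, replicate 3 by the most. Dnajc11, which binds the MICOS complex of the cristae, differed by -0.16 ± 0.11 with groups that did not overlap, and Dnajc4, Dnajc28 and Dnajc30 had differences of 0.05, 0.23 and -0.11. The partners of this compartment stood as follows: Hspa9, mortalin, was at 9.66, 9.74 and 9.68 in controls and 8.84, 9.36 and 8.97 in knockouts (difference -0.64 ± 0.15, limma, adjusted p = 0.137), and its nucleotide exchange factor Grpel1 differed by -0.29 ± 0.12 (adjusted p = 0.329).

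**Figure D2:**
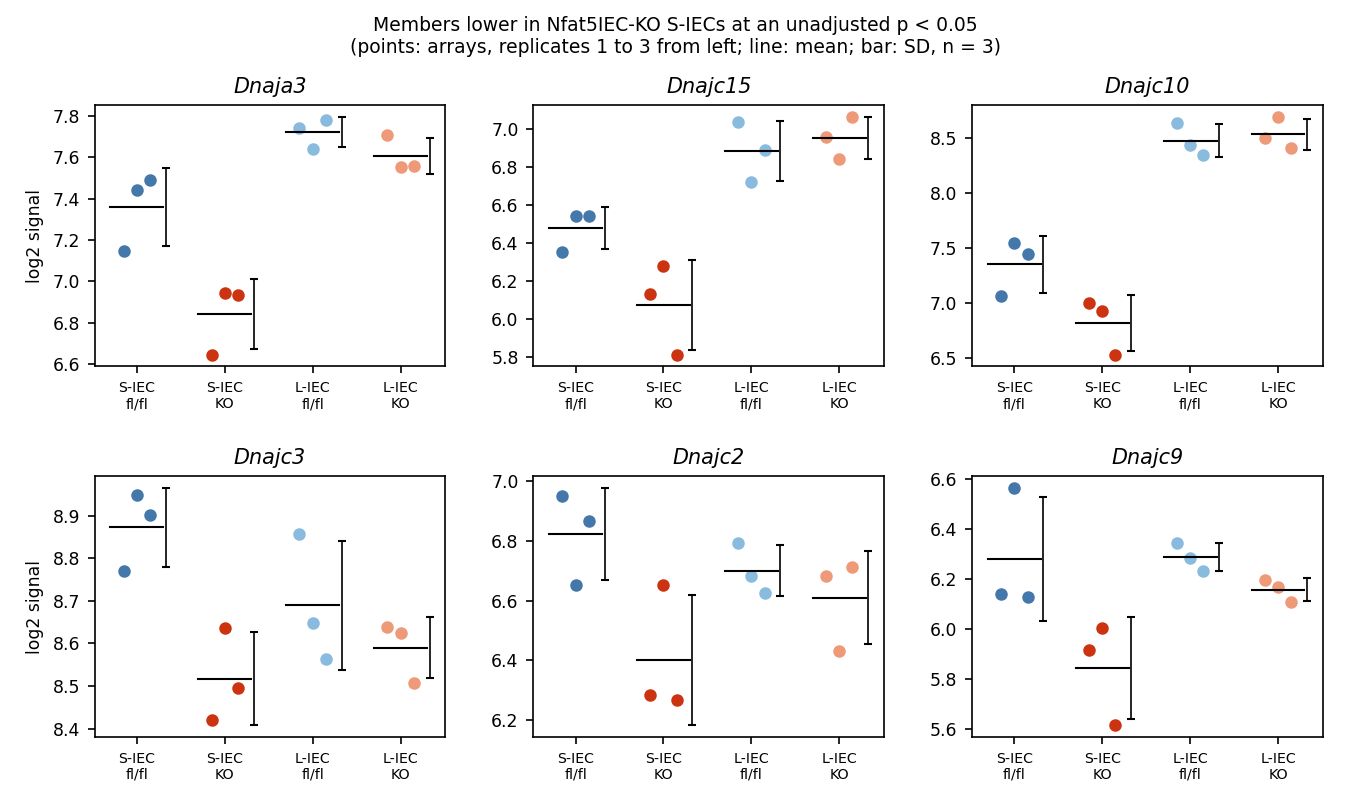
Log2 signal of the 6 members lower in Nfat5IEC-KO S-IECs at an unadjusted p under 0.05, for each array of the 4 groups (points, replicates 1 to 3 from left to right), with the mean (line) and the SD of 3 arrays (bar); each panel has its own vertical axis. The S-IEC groups overlap for Dnajc2 only, and the L-IEC groups overlap in every panel but that of Dnajc9.

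The ER group had 11 members, of which 2 were lower at an unadjusted p under 0.05, both enzymes or co-chaperones of the lumen. Dnajc10 (chr2:80315446-80354055) encodes ERdj5, a disulfide reductase that opens misfolded glycoproteins for degradation. Its signal was 7.06, 7.54 and 7.45 in Nfat5fl/fl S-IECs and 6.99, 6.93 and 6.53 in Nfat5IEC-KO S-IECs, so that the highest knockout array came within a short distance of the lowest control array, replicate 1, the control array low in Car1. The difference was -0.53 ± 0.17, or 1.45-fold lower (limma, adjusted p = 0.218), and it was not among the 3 members lower without control replicate 2. Dnajc3 (chr14:118937932-118981702) encodes p58IPK, or ERdj6, which delivers clients to BiP. It stood at 8.77, 8.95 and 8.90 in controls and 8.42, 8.64 and 8.50 in knockouts (difference -0.36 ± 0.11, limma, adjusted p = 0.218). Every knockout array was lower than every control array, and the nearest knockout array was replicate 2. Dnajb11, the lumenal ERdj3, was 7.88, 8.06 and 7.69 in controls and 7.68, 7.66 and 7.47 in knockouts, without overlap, although the highest knockout array was just below the lowest control array (difference -0.27 ± 0.13, adjusted p = 0.399). Dnajc1, the membrane-anchored ERdj1, was 5.63, 5.78 and 5.93 in controls and 5.19, 5.78 and 5.29 in knockouts. Replicate 2 of its knockout arrays lay within the control range and the other 2 lay below it (difference -0.36 ± 0.17, adjusted p = 0.380).

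Dnajb9, or ERdj4, holds the stress sensor IRE1 in check and is itself a classic target of the unfolded protein response. It stood at 7.69, 7.48 and 7.39 in controls and 7.55, 7.25 and 7.72 in knockouts, with overlapping groups and a difference of -0.01 ± 0.15 (95% interval -0.35 to 0.33). The ER membrane members whose J domain faces the cytosol had differences on both sides of 0. Dnajb12, which takes part in ER-associated degradation, differed by 0.16 ± 0.11 without overlap, its paralog Dnajb14 by -0.06 ± 0.11, and the related Dnajc18 by -0.13 ± 0.13, all short of an unadjusted p of 0.05. Dnajc14, Dnajc16 and Dnajc25 had differences of -0.01, -0.06 and 0.00 with overlapping groups. Of the 15 measured genes of a list of BiP, its partners and ER folding factors, 10 were lower at an unadjusted p under 0.05 and 0 were higher. By this rule 8.23% of all clusters and 15.3% of those not dim were lower, and 5.81% of all were higher. The median difference of the list was -0.50, and none passed the adjusted limit. Hspa5, BiP itself and 1 of the 10, was at 9.15, 9.06 and 8.77 in controls and 8.00, 8.35 and 8.08 in knockouts (difference -0.85 ± 0.14, limma, adjusted p = 0.130). Herpud1, a factor of ER-associated degradation, differed by -0.75 ± 0.14, and Pdia6, a disulfide isomerase, by -0.72 ± 0.15. The Paneth cell markers, from secretory cells, were lower in the same knockout arrays. Fewer cells of a type and less RNA per cell cannot be told apart in these bulk samples, and the part of the Paneth cell level in the ER results was not tested.

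Promoter windows from RefSeq (build GRCm38.p6, 250 bases before to 50 bases after a transcription start, matched by Entrez identifier) were found for 33 of the 41 members, 10 of them with more than 1 window. They were searched on both strands for letters of known stress elements, and such a match is a description of the letters only. The ER stress element, CCAAT and CCACG with 9 letters between them, occurs in 0.119% of the 32851 windows of the table and in 1 member, Dnajc3. Among the 38 of 50 partner genes that had a window it was in that of Calr, Canx, Creld2, Hsp90b1, Hspa5 and Pdia6. The window of Dnajc3 is shown because this member, lower in Nfat5IEC-KO S-IECs, shares the element with Hspa5; it lies at chr14:118937682-118937981 on the plus strand, and the element, in capitals, begins at position -105 from the start:
Dnajc3: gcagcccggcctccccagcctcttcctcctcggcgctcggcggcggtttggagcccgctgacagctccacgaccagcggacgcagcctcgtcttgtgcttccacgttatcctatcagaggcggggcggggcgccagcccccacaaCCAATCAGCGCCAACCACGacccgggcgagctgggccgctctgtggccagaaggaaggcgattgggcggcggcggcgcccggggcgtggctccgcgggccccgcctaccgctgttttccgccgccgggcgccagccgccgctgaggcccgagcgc
Creld2 differed by -0.66 ± 0.16 and Hsp90b1 by -0.58 ± 0.13 in S-IECs, while Calr and Canx had differences of -0.22 and -0.19, short of an unadjusted p of 0.05. The related unfolded protein response element, TGACG followed by TGG (0.676% of windows), was found in Dnajc25 alone among the members, and this member did not differ between the genotypes in S-IECs beyond its spread.

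The group of the ribosome and nucleus had 5 members, all with a difference below 0 in S-IECs, and 2 of them were lower at an unadjusted p under 0.05. Dnajc2 (chr5:21757266-21785264), the mammalian zuotin, sits at the exit of the ribosome and recruits HSP70 to nascent chains. It stood at 6.95, 6.65 and 6.87 in controls and 6.28, 6.65 and 6.27 in knockouts. Replicate 2 of the knockouts met replicate 2 of the controls, so that the groups overlapped, while the other knockout arrays were well below (difference -0.42 ± 0.14, limma, adjusted p = 0.240). Dnajc9 (chr14:20384638-20388910), a chaperone of histones H3 and H4 that cells need most when they replicate their DNA, was 6.14, 6.57 and 6.13 in controls and 5.92, 6.01 and 5.62 in knockouts (difference -0.43 ± 0.16, adjusted p = 0.273). The groups did not overlap, with control replicate 2 the highest and knockout replicate 3 the lowest. Dnajc21, a factor of large ribosomal subunit maturation, Dnajc24, which is needed for diphthamide on elongation factor 2, and the spliceosome-associated Dnajc8 differed by -0.20 ± 0.17, -0.20 ± 0.12 and -0.19 ± 0.22. The cycling crypt cell markers Mki67 (-0.87 ± 0.19) and Mcm5 (-0.78 ± 0.19), which mark dividing cells, differed in the same direction across the same arrays, and their part in these differences was not tested.

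Over the 6 members together, the mean deviation from the control mean was -0.46, -0.29 and -0.58 in knockout replicates 1, 2 and 3. Replicate 2 thus moved least, as it did for the 7 Paneth cell markers (-1.60, -0.42 and -1.58) and the 7 cycling markers (-0.97, -0.33 and -0.90). The 6 members were chosen by these same arrays, so that their means are given as a description. Over all 41 members the means were -0.05, -0.07 and -0.10 in knockout replicates 1, 2 and 3. Over the 33 members not dim they were -0.10, -0.11 and -0.14. Replicate 2 did not move least in either set. In the controls the deviations of the 6 members were -0.12, 0.09 and 0.04, the lowest being replicate 1. It is also the control array low in Car1 and in the mean of the colonocyte list (-0.80, against 0.50 and 0.30). Car1 had the widest gap of that list. Aqp8 (3.53, 4.11 and 4.59) and Hoxb13 (3.67, 4.31 and 4.02) were also lowest there, at signals below 5. Car4 was nearly level (7.37, 7.39 and 7.42), and Slc26a3 was highest in replicate 1 (9.50, 9.31 and 9.27). The part of these lists in the family's differences was not tested.

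The cytosolic partners of HSP70, 8 members, held none that was lower or higher at an unadjusted p under 0.05 in S-IECs, and their median difference was 0.05. Dnajb1 (chr8:83608175-83612653), the canonical heat-inducible HSP40, stood at 6.73, 6.88 and 6.67 in Nfat5fl/fl S-IECs and 6.86, 6.47 and 6.79 in Nfat5IEC-KO S-IECs. The groups overlapped, and the difference of -0.06 ± 0.14 had a 95% interval of -0.36 to 0.25 (limma, adjusted p = 0.895). In L-IECs it stood at 7.01, 6.87 and 6.88 and 6.69, 7.02 and 6.92 (difference -0.04 ± 0.12, interval -0.31 to 0.22), again with overlap. Its sign was not stable, since the difference ran from -0.13 to 0.06 in S-IECs and from -0.11 to 0.05 in L-IECs over the 17 alternatives. Dnaja2, a class A member that refolds clients with HSP70, was 8.47, 8.53 and 8.51 in control and 8.37, 8.38 and 8.41 in knockout S-IECs, a small difference of -0.12 ± 0.10 whose groups did not overlap. Dnajb6, which keeps polyglutamine proteins from aggregating, was 6.05, 6.09 and 6.18 and 5.87, 5.94 and 5.91 and did not overlap either (difference -0.20 ± 0.11, adjusted p = 0.443). Dnaja4, Dnajb5 and Dnajc7 were on the other side, at 0.17 ± 0.11, 0.21 ± 0.11 and 0.17 ± 0.11. Dnajb2, a member with ubiquitin-interacting motifs, and the dim Dnajb4 differed by 0.02 and 0.08 with overlap.

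The HSP70s and their other helpers were taken from lists with 50 measured genes in all. At an unadjusted p under 0.05, 8.23% of all clusters and 15.3% of those not dim were lower in Nfat5IEC-KO S-IECs. Of 11 HSP70 genes 5 were lower in Nfat5IEC-KO S-IECs at an unadjusted p under 0.05 (Hspa1a, Hspa1b, Hspa5, Hspa8 and Hspa9) and 0 were higher, with a median of -0.23. Hspa5 is also counted in the list of ER folding factors above. Hspa1b, heat-inducible HSP70, was 7.87, 7.77 and 6.43 in controls and 5.35, 5.01 and 6.05 in knockouts (difference -1.88 ± 0.38, limma, adjusted p = 0.130). Hspa8, the constitutive HSC70, was 10.94, 11.09 and 10.69 and 10.16, 10.37 and 10.21 (difference -0.66 ± 0.13), and Hspa1a, the twin of Hspa1b, differed by -0.95 ± 0.24. Hspa1a and Hspa1b are near-identical copies, whose probes may share signal. Of 13 nucleotide exchange factors, which free HSP70 of ADP, 6 were lower (Bag3, Grpel1, Hspa4, Hsph1, Hyou1 and Sil1) and 0 higher, with a median of -0.29. Hsph1, or HSP110, had the largest difference among the exchange factors, -2.10 ± 0.30, from 8.21, 8.32 and 7.31 to 5.41, 6.33 and 5.81 (adjusted p = 0.112). Hyou1, the exchange factor of BiP, differed by -0.63 ± 0.15 and Sil1, which acts on BiP as well, by -0.44 ± 0.12. Of 9 adaptors of HSP70 and HSP90, 4 were lower (Ahsa1, Cdc37, St13 and Stip1) and 0 higher, with a median of -0.25. Stip1, or HOP, which hands clients from HSP70 to HSP90, differed by -0.84 ± 0.13, the HSP70-interacting St13 by -0.53 ± 0.12, and the HSP90 co-chaperones Ahsa1 and Cdc37 by -0.47 ± 0.14 and -0.25 ± 0.10. Of the 3 measured J-domain genes with other symbols, 0 were called, and Sec63 of the ER translocon, the clathrin uncoating kinase Gak and the iron-sulfur cluster factor Hscb had differences of -0.12, 0.02 and -0.03. No gene of these lists passed the adjusted limit in S-IECs.

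**Figure D3:**
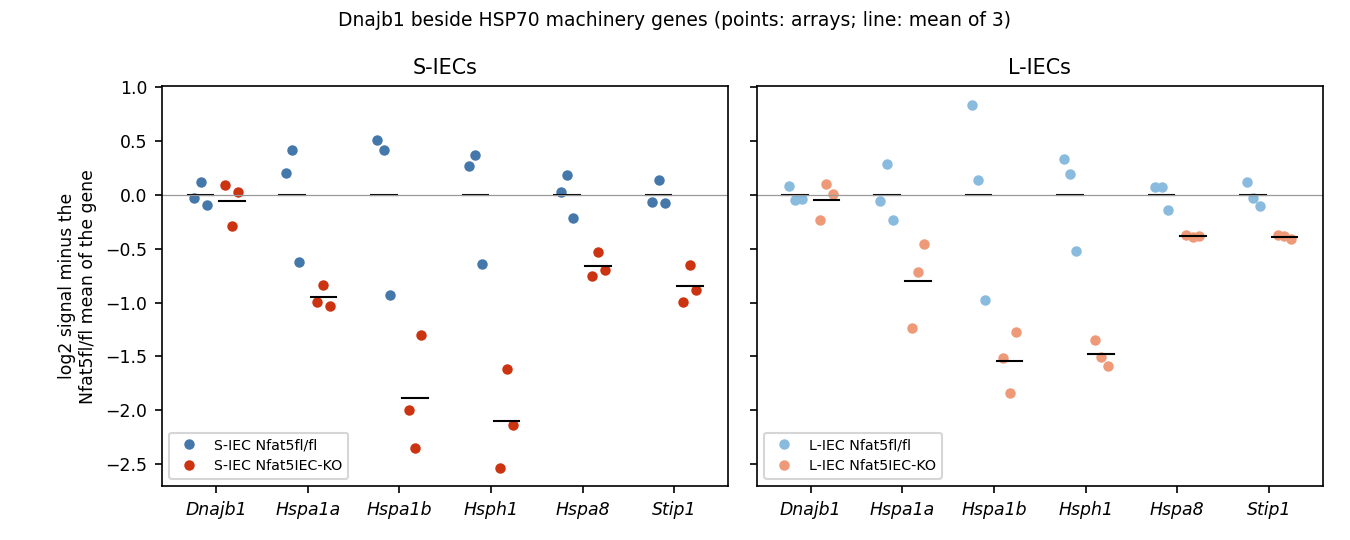
Log2 signal of Dnajb1 and of Hspa1a, Hspa1b, Hsph1, Hspa8 and Stip1 on each array (points), minus the mean of the 3 Nfat5fl/fl arrays of the tissue, with the mean of each group (line), in S-IECs (left) and L-IECs (right). The Nfat5IEC-KO points of Dnajb1 lie on both sides of the control mean in both tissues and overlap the controls, while those of the other 5 genes lie below all controls.

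Within each array, log2 Dnajb1 minus log2 Hspa1b was higher in Nfat5IEC-KO than in Nfat5fl/fl by 1.83 in S-IECs and by 1.50 in L-IECs, and in neither tissue did the groups overlap. The same difference taken against Hsph1 was higher by 2.04 and 1.44, against Hspa1a by 0.89 and 0.76, against Hspa8 by 0.60 and 0.34, and against Stip1 by 0.79 and 0.35. These 5 genes were taken for their lower values in the same arrays, so the differences are a description. A two-sided exact permutation test gave for each the smallest p that 3 arrays against 3 allow, 0.1. Without overlap between the groups this value is fixed, so the test adds nothing here. The counts of the lists in L-IECs, where 3.35% of all clusters were lower at an unadjusted p under 0.05 against 8.23% in S-IECs, were 3 of 11 HSP70s (Hspa1a, Hspa1b and Hspa8), 3 of 13 exchange factors (Bag3, Hspa4l and Hsph1), 1 of 9 adaptors (Stip1) and 0 of 15 ER folding factors, and the difference between the tissues was not tested for the lists.

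Heat shock and tonicity elements were looked for in the same promoter windows. A heat shock element of 3 units, in which TTC and GAA alternate with 2 letters between them, is in 0.603% of all windows, and among the members in that of Dnajb6 alone, and among the partners in that of Hsph1 alone. The shorter form of 2 units, 1 TTC and 1 GAA in either order with the same gap, lies within the longer and is in 15.1% of all windows and in 7 of the 44 windows of members (15.9%), those of Dnaja4, Dnajb4, Dnajb6, Dnajc5g, Dnajc10 and Dnajc27. The tonicity element to which NFAT5 binds is in 4.96% of all windows and in 2 of the 44 windows of members (4.55%). These are the windows of Dnajb2 and Dnajb9, neither of which differed between the genotypes beyond its spread. Among the partners it is in Bag1, Hspa2 and Hsph1, of which Hsph1 was lower at an unadjusted p under 0.05 in both tissues, while Bag1 and Hspa2 differed by -0.05 ± 0.15 and 0.03 ± 0.12 in S-IECs and were not called. The windows of Hspa1a and Hspa1b, which were lower in both tissues as well, did not hold it. Dnajb1 had a window, in which neither element was found. The search took exact letters only, so an element that departs from them or lies outside the window would be missed. The windows of Dnajb6, Dnajb9 and Dnajb2 are shown with these elements in capitals, the first at chr5:29735648-29735947 (plus strand), the second at chr12:44210019-44210318 (minus strand, read 5′ to 3′ along the gene) and the last at chr1:75236173-75236472 (plus strand). The elements begin at positions -46, -116 and -142 from the start, and Dnajb6 has a second, overlapping window that holds the same match.
Dnajb6, heat shock element: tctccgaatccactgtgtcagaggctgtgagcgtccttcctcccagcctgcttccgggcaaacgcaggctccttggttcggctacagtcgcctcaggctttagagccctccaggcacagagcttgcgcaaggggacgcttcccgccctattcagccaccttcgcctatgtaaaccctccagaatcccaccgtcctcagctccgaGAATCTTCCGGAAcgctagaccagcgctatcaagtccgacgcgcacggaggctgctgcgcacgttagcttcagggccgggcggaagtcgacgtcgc
Dnajb9, tonicity element: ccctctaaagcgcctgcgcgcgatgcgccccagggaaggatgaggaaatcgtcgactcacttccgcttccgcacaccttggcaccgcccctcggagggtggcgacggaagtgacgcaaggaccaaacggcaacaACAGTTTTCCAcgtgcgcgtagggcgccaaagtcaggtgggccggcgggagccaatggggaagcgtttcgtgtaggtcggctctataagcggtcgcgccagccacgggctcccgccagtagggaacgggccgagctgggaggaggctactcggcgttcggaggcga
Dnajb2, tonicity element: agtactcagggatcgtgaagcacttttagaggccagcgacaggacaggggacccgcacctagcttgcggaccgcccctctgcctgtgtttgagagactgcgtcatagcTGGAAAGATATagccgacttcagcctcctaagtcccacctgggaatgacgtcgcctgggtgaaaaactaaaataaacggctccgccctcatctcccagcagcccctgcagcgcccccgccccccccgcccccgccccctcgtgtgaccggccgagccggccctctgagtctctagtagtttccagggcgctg
Dnajb2, with 5.26, 5.58 and 5.38 in control and 5.32, 5.46 and 5.51 in knockout S-IECs, and Dnajb9 both had overlapping groups in each tissue.

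The members of vesicles and endosomes held no call in S-IECs, and the 4 of them had differences of 0.03 to 0.09. Dnajc13, or RME-8, an endosomal sorting factor, was 8.16, 8.13 and 8.22 in controls and 8.13, 8.36 and 8.29 in knockouts (difference 0.09 ± 0.11, adjusted p = 0.780). Dnajc5, the cysteine string protein of secretory vesicles, differed by 0.06 ± 0.14. Dnajc12, which assists aromatic amino acid hydroxylases, was 5.34, 5.34 and 5.13 and 5.21, 5.28 and 4.95 (difference -0.12 ± 0.13), and Dnajc22 differed by -0.02. The 5 members known for germ cells or other restricted expression were all dim on these arrays, with log2 signals of 3.05 to 4.60 over all 12 arrays, and none was called in S-IECs.

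In L-IECs fewer members were called between the genotypes. Of the 41 members 1 was lower in Nfat5IEC-KO at an unadjusted p under 0.05, or 2.44%, against 3.35% of all clusters, and 0 were higher, against 2.97%; 0 passed the adjusted limit by limma. The median difference was -0.01, beside 0.00 over all clusters. The one called was Dnajb3, a dim member, at 3.74, 3.97 and 3.92 in controls and 3.66, 3.57 and 3.49 in knockouts (difference -0.31 ± 0.11, limma, adjusted p = 0.769). Its call was lost without Nfat5fl/fl replicate 3 or Nfat5IEC-KO replicate 3, when 0 members were lower. Without Nfat5fl/fl replicate 3, 1 member was higher. Groups did not overlap for 2 lower members, Dnajb3 and Dnajc9, against 6.24% of all clusters, and for 2 higher, Dnajc5 and Dnajc25, against 5.83%.

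**Figure D4:**
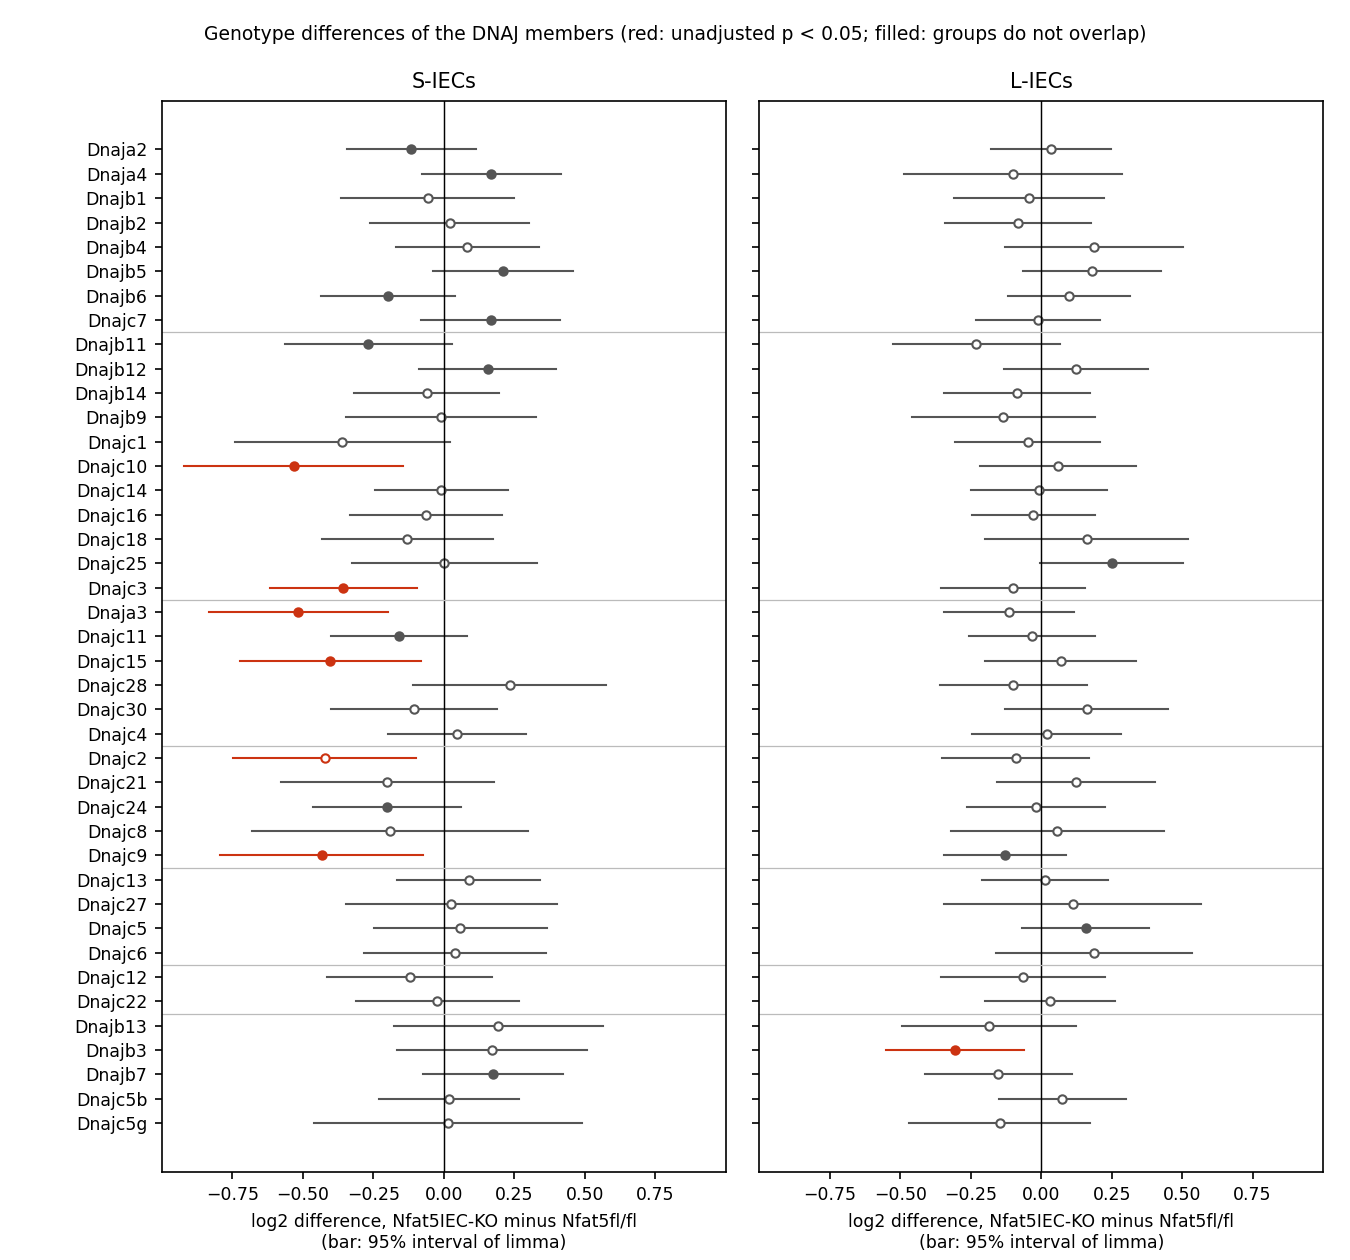
Log2 difference, Nfat5IEC-KO minus Nfat5fl/fl, of each of the 41 members in S-IECs (left) and L-IECs (right) with its 95% interval from limma; red marks an unadjusted p under 0.05 and a filled point groups that do not overlap. In S-IECs 6 red points lie left of 0 between -0.53 and -0.36 and none right of it, and in L-IECs the one red point is the dim Dnajb3 at -0.31.

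The 6 members chosen by their lower S-IEC values stood as follows in L-IECs. Dnaja3 was 7.74, 7.64 and 7.78 in control and 7.71, 7.55 and 7.56 in knockout L-IECs (difference -0.11 ± 0.10). Dnajc10 was 8.64, 8.44 and 8.34 and 8.50, 8.69 and 8.41, with a difference of 0.06 ± 0.12 on the other side of 0. Dnajc15, at 7.04, 6.72 and 6.89 and 6.95, 6.84 and 7.06, differed by 0.07 ± 0.12. Of these 3 genes the arrays overlapped in L-IECs. Dnajc3 differed by -0.10 ± 0.11, Dnajc2 by -0.09 ± 0.11, and Dnajc9, with 6.34, 6.29 and 6.23 in controls and 6.20, 6.17 and 6.11 in knockouts, by -0.13 ± 0.09. Dnajc25, an ER member, was 5.09, 4.87 and 5.15 in control and 5.24, 5.25 and 5.37 in knockout L-IECs, the highest difference of the family there (0.25 ± 0.11, adjusted p = 0.788), and Dnajc5 differed by 0.16 ± 0.10.

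The difference between the tissues was tested itself, as the genotype difference in S-IECs minus that in L-IECs on all 12 arrays. No member passed the adjusted limit (limma). At an unadjusted p under 0.05, 4 members had a lower difference in S-IECs, or 9.76%, against 6.3% of all clusters, and 2 a higher one, or 4.88%, against 4.53%. The 4 were Dnajc10 (-0.59 ± 0.22, limma, adjusted p = 0.346), Dnajc15 (-0.47 ± 0.19, 0.377), Dnaja3 (-0.40 ± 0.17, 0.417) and Dnajb6 (-0.30 ± 0.13, 0.421). Among clusters that were not dim, 11.7% had a lower difference, beside 4 of the 33 members that were not dim. The 2 higher were the dim Dnajb3 (0.48 ± 0.19) and Dnajb7 (0.33 ± 0.15). The count of 4 was 1 without any single one of Nfat5fl/fl S-IEC replicates 2 and 3, Nfat5fl/fl L-IEC replicate 2 and Nfat5IEC-KO S-IEC replicate 3, and 2 without Nfat5IEC-KO L-IEC replicate 1 or 3. The count of 2 was 0 without Nfat5fl/fl S-IEC replicate 3, Nfat5IEC-KO S-IEC replicate 1 or Nfat5IEC-KO L-IEC replicate 3, and 1 without Nfat5fl/fl S-IEC replicate 1, Nfat5fl/fl L-IEC replicate 2 or Nfat5IEC-KO L-IEC replicate 2.

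More members were called between the tissues. In Nfat5fl/fl mice, 5 members passed an adjusted p under 0.05 (limma) with a lower signal in S-IECs than in L-IECs, or 12.2%, against 10.4% of all clusters, and 0 were higher, against 7.2%. At an unadjusted p under 0.05, 9 were lower and 1 was higher, against 16.3% and 12.6% of all clusters. With dim clusters left out before the fit, 7 of 33 members were lower at the adjusted limit, against 24.4% of clusters. This filter counts arrays of both tissues, so that a cluster bright in L-IECs alone passes it, which favours calls lower in S-IECs. Dnaja4, 1 of the 7, lay under the dim level of 5 in every S-IEC array and passed through L-IEC arrays only. The median difference over the members was -0.10, beside 0.00 over all clusters. Of the 5 called members, Dnajc1, Dnajc10 and Dnajc16 belong to the ER, the largest group, with 11 of the 41 members.

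The largest tissue difference was that of Dnajc10, at 7.06, 7.54 and 7.45 in S-IECs and 8.64, 8.44 and 8.34 in L-IECs of Nfat5fl/fl mice. No S-IEC array came near the colon, and the difference was -1.12 ± 0.15, or 2.18-fold lower (limma, adjusted p = 0.000779). Dnaja4, a class A partner of HSP70, was 4.54, 4.55 and 4.67 in S-IECs and 5.48, 5.11 and 4.84 in L-IECs (difference -0.56 ± 0.16, adjusted p = 0.0413), the L-IEC arrays being spread. Dnajc16, or ERdj8 of the ER membrane, was 6.15, 6.40 and 6.42 and 6.82, 6.82 and 6.92 (difference -0.53 ± 0.11, adjusted p = 0.0113). Its 3 colon arrays lay close together and above every ileal one. Dnajc1 was 5.63, 5.78 and 5.93 and 6.21, 6.28 and 6.35 (difference -0.50 ± 0.12, adjusted p = 0.0163). Dnajc15 was 6.35, 6.54 and 6.54 and 7.04, 6.72 and 6.89 (difference -0.40 ± 0.12) and passed the limit by little, with an adjusted p of 0.0498. The count of 5 was 2 without Nfat5fl/fl S-IEC replicate 1, the array low in Car1, and 3 without S-IEC replicate 2 or 3 or L-IEC replicate 1 or 3. Dnajc10 and Dnajc16 were called under each of the 17 alternatives tried, and Dnajc1 under 14 of 17, but Dnaja4 and Dnajc15 under 9 of 17.

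In Nfat5IEC-KO mice the same comparison called 8 members lower in S-IECs, or 19.5%, against 14.7% of all clusters, and 1 higher, or 2.44%, against 10%. With dim clusters left out by the same filter over both tissues, 11 of 33 members were lower, against 32.9% of clusters. The share of members was thus close to that of the clusters that pass this filter. The 8 were Dnajc10, Dnajc15, Dnajc1, Dnaja3, Dnajc21, Dnajc16, Dnajc18 and Dnaja2, and the one higher was the dim Dnajb7. Dnajc10 differed by -1.72 ± 0.15, or 3.29-fold lower (adjusted p = 4.02e-05), beside -1.12 in Nfat5fl/fl mice. Dnajc15 differed by -0.88 ± 0.14 beside -0.40, Dnaja3 by -0.76 ± 0.12 beside -0.36, and Dnajc1 by -0.81 ± 0.17 beside -0.50. Dnajc16 differed by -0.56 ± 0.10 beside -0.53. Dnajb7 was 3.90, 3.71 and 3.76 in S-IECs and 3.25, 3.23 and 3.08 in L-IECs (difference 0.60 ± 0.11), a gap between values that are all dim. The 1 higher became 2 without Nfat5IEC-KO S-IEC replicate 3. The interaction given above is the test of how these tissue differences vary with genotype.

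**Figure D5:**
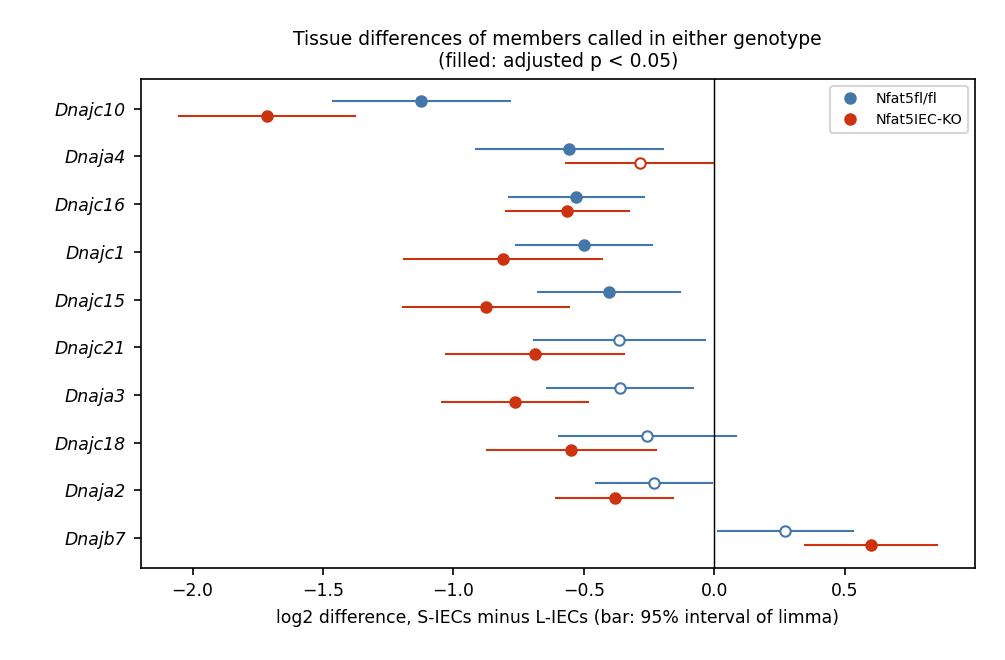
Log2 difference, S-IECs minus L-IECs, with its 95% interval from limma in Nfat5fl/fl (blue) and Nfat5IEC-KO mice (red), for the 10 members with an adjusted p under 0.05 (filled points) in either genotype. All but Dnajb7 lie left of 0, with Dnajc10 the farthest at -1.12 and -1.72.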

How the data were processed

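Total RNA of 12 samples was measured on Affymetrix Mouse Gene 2.0 ST arrays. The authors made the deposited log2 values per transcript cluster with the Transcriptome Analysis Console (genome build mm10, per the submitters' processing notes). The sources read here state neither its version nor the summarization and normalization, so the values were used as deposited. A different background correction could move dim clusters most. The number of arrays limits the precision. No scan dates were given, so batches were not tested. Of 41345 clusters, 23521 had 1 gene symbol in the platform annotation, 1820 several and 16004 none.

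Groups followed the labels. limma 3.58.1 in R 4.3.3 (lmFit, eBayes) was fitted to the 6 arrays of each comparison, and to all 12 for the interaction, over the 25341 clusters with a symbol, with Benjamini-Hochberg adjustment and two-sided tests. The labels number the mice but do not say whether a number marks the same mouse in both tissues, and p-values measure only the spread between these samples. The script was tested on simulated data. All 41 members were matched to RefSeq by Entrez identifier, and promoters were searched in Python 3.11.15.

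Values on every array are given for the up to 12 members with the smallest p among those at an unadjusted p under 0.05 whose groups did not overlap, the up to 12 with the largest tissue difference in Nfat5fl/fl at an adjusted p under 0.05, the member of smallest p in S-IECs for a role group without one, up to 4 partner genes per list, and Nfat5. Dnajc2, Dnajb1, Dnajb2, Dnajb6, Dnajb9, Dnajb11, Dnaja2, Dnajc25, Dnajb7 and other members and partners fall outside this rule and were picked with their values known. The members, lists and tests were chosen with earlier results of these data known. Alternatives were a replicate block, all arrays in 1 fit, a trended and robust variance model, array weights, quantile normalization, median centring, a filter on dim clusters, other sets of clusters, the dimmest cluster of a member, the methods' t-test and leaving out each array.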

Additional observations from a re-analysis of the deposited data

How the results depend on the processing

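The limits are the 3 arrays per group, the unknown normalization and 8 members near the floor of the signal. In S-IECs the 6 members lower at an unadjusted p under 0.05 became 3 to 7 when 1 array was left out. The methods' t-test, the Student test named in the study's methods run on the same values, called 5 lower and 2 higher in place of 0. The fit of all 12 arrays called 1 member lower at an adjusted p under 0.05 in place of 0, and 444 clusters lower and 127 higher in place of 0 and 2. The trended and robust variance model called 314 clusters lower and 166 higher, the filter on dim clusters 60 and 21, against 0 and 2, and none of these was a member. Leaving out Nfat5IEC-KO S-IEC replicate 2 gave 203 lower and 23 higher, again with no member. In L-IECs the 1 lower member became 0 with the filter on dim clusters, 2 by the methods' t-test and 0 to 1 without 1 array, and the 0 higher became 1 with that filter and 0 to 1 without 1 array. For the interaction, the 4 lower ran from 1 to 6 without 1 array. The 2 higher became 1 with the replicate block, the trended and robust model, array weights, quantile normalization, median centring or every cluster of the table, 0 with the filter on dim clusters, and 0 to 3 without 1 array. In Nfat5fl/fl, the 5 members lower in S-IECs than in L-IECs became 3 with the replicate block, 8 with the trended and robust model, 3 with every cluster of the table and 2 to 4 without 1 array. In Nfat5IEC-KO the 8 lower stayed between 6 and 11, and the 1 higher became 2 in the fit of all arrays, 0 with the filter on dim clusters and 1 to 2 without 1 array. The cause of these changes was not tested, other than that the filter leaves out Dnajb3 and Dnajb7 themselves. For the tissues in Nfat5fl/fl at an unadjusted p, 9 members lower became 5 without L-IEC replicate 3, and the 1 higher ran from 0 to 4 without 1 array. Among single members, 32 values lost a call at the adjusted limit in the same direction under an alternative and 1 gained one. Of the member differences followed singly through these alternatives, none with an unadjusted p under 0.05 changed sign, while Dnajb1, which was not called, did. Partner and marker genes, and some named member differences such as that of Dnaja3 between tissues in Nfat5fl/fl, were not followed in this way. The Dnaja3 cluster of middle brightness was not among the alternatives. It gave a difference of 0.10 in S-IECs, with overlapping groups. With the replicate number as a block, 7 members were lower in S-IECs in place of 6. The deviations of arrays with the same number correlated with r of -0.04 to 0.10 across clusters. With 3 arrays per group these values cannot settle whether a number marks the same mouse in both tissues. The methods' t-test and the fit of all arrays were not run as alternatives for the interaction, which has all arrays in its own fit.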
